A study of Mus musculus with 6 samples.

Results

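The genes described here are the axon guidance ligands and receptors of mouse melanoma cells, compared between Spp1 knockout cells and cells given a non-targeting control. The members were the rows whose gene symbol named a semaphorin of classes 3 to 7, a plexin, a neuropilin, an ephrin, an Eph receptor, a Slit, a Robo, a netrin or an Unc5 receptor, and 60 of the 19213 genes in the deposited table matched. Membership was set by symbol alone, but this group of genes was chosen with earlier results of these data known. Of these, 32 encode ligands and 28 receptors. The annotation holds 68 genes with such symbols, and Epha6, Epha8, Ephb1, Ntn3, Ntn5, Slit3, Unc5a and Unc5d had no row in that table. Every gene with a row had at least 1 read in every library. A gene unread in some libraries, of either group, may therefore be missing.

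PolyA-selected RNA was sequenced from 3 samples with Spp1 knocked out by CRISPR-Cas9 and from 3 samples with the non-targeting control, all 6 in batch 1. The product of Spp1 is osteopontin, a secreted ligand of integrins and CD44. The design text calls them biological replicates, but the labels do not say if the knockout samples are clones or pools, or if cultures were separate, so the p-values rest on a spread that may be technical. Each sample has its own cell line label, B16F13 to B16F15 for the knockout and B16F10 to B16F12 for the control, and if these name different cells, that difference and the knockout cannot be told apart.

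Axon guidance genes encode cues and receptors that steer growing axons and also migrating cells, including the neural crest from which melanocytes arise. Semaphorins signal through plexins, with neuropilins as co-receptors for most secreted class 3 semaphorins. Ephrins are membrane-bound ligands of the Eph receptor tyrosine kinases, and signals can run into both the ephrin-bearing and the Eph-bearing cell. Slits act through Robo receptors, and netrins through Dcc and Unc5 receptors.

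Values are scaled reads, the reads of a gene divided by the library's DESeq size factor. The libraries held 75438190 to 80206796 reads in knockout and 72717465 to 94314770 in control. Spp1 itself had 2, 2 and 4 reads in the knockout libraries and 143, 175 and 178 in the control libraries, as each library's label says. All 12 melanocyte markers were listed, at a summed level of 1099400 to 1109690 scaled reads in knockout and 933112 to 951091 in control. Of the 11 tested 5 rose, 3 fell (Tyr, Trpm1 and Oca2) and 3 did not pass. Tyrp1 had the largest mean of them, 503767 in knockout, against 414023 in control. Among markers of other cell types, the summed Schwann and glial level was 10372 to 10861 in knockout and 31236 to 32626 in control (7 of 8 markers listed), and the endothelial level was 611 to 661 in knockout and 90.9 to 94.4 in control (3 of 7 listed, nearly all of it Vwf, with Cdh5, Kdr, Tek and Tie1 not listed). Of 7 neuronal markers Tubb3 and Map2 were listed, at 9821 to 10788 in knockout and 13795 to 14271 in control. The summed levels of fibroblast, leukocyte and epithelial markers were 1433 to 1508, 84.9 to 89.03 and 44.9 to 63.3 in knockout, against 2069.9 to 2423, 269 to 279 and 149 to 166 in control (5 of 8, 3 of 7 and 2 of 6 listed). Members of these sums did not all move one way: of the fibroblast markers tested 1 rose and 3 fell, with Col1a2 at 779 in knockout, against 134 in control, and Col1a1 at 36.8 in knockout, against 489.7 in control. Of the Schwann and glial markers tested 1 rose and 5 fell, and of the endothelial ones 1 rose and 1 fell. The part of these shifts in the results on guidance genes was not tested. In bulk RNA, fewer cells of a type and less RNA per cell cannot be told apart.

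The stretches of 250 bases before the start site are shown for the 2 members that rose most and the 2 that fell most among those reaching a mean of 100 scaled reads in either group, a rule set with the values known. They come from RefSeq on GRCm38.p6, the assembly of mm10, are written 5′ to 3′ along the gene, and 52 of the 60 members have an entry. Start sites are those of RefSeq, and for Sema3d that site lies 219 bases before the start in GENCODE. Capitals mark matches to any of 5 motifs on either strand.
Ephb4 (chr5:137349859-137350108, plus strand): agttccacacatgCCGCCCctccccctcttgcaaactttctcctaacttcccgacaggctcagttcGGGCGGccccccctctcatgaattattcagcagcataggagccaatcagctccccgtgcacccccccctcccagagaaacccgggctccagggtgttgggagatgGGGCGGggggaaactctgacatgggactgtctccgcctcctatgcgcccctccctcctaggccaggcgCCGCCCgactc
Sema3d (chr5:12382916-12383165, plus strand): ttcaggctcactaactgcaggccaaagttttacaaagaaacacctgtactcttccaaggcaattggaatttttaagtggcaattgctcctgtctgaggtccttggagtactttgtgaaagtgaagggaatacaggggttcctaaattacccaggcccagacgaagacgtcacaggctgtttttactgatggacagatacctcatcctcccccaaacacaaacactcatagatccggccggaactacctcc
Sema3g (chr14:31217623-31217872, plus strand): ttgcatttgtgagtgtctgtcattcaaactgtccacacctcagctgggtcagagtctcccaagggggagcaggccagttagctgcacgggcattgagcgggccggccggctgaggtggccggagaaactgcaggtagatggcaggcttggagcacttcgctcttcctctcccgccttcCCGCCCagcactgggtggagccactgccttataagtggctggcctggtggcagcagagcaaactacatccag
Plxnc1 (chr10:94944846-94945095, minus strand): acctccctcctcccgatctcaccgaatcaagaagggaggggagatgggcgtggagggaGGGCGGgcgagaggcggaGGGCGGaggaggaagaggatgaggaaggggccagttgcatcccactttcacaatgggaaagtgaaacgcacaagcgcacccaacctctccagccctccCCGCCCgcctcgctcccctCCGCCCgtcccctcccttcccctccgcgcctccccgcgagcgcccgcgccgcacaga

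The motifs were the GC box GGGCGG, the canonical E-box CACGTG, the M-box TCATGTG, the AP-1 site TGANTCA and the TEAD site GGAATG. The Ephb4 and Plxnc1 stretches held 4 GC boxes each and the Sema3g stretch 1, while Sema3d held no match. No 2 matches overlapped in these 4 stretches. GC boxes stood in 38 of the 52 member promoters and in 32.9% of the first listed promoters of all 27025 genes. These 27025 genes were not limited to those tested here. Among called members with an entry, GC boxes stood in 15 of 21 that rose and in 16 of 21 that fell. The E-box was found in 2 members (Robo2 and Sema6d; 6.05% of all), the AP-1 site in 2 (Sema4c and Sema4d; 6.87%), the TEAD site in 6 (12.6%) and the M-box in 0 (3.22%). The motifs were chosen after the sequences were seen, and a match is a run of letters, not a bound site.

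Most members differed between knockout and control, in both directions. Of the 53 members with at least 10 scaled reads in at least 3 of the 6 libraries, 25 rose, 22 fell and 6 did not pass (limma, adjusted p under 0.05 over all 15307 tested genes). Log2 changes are differences in mean log2(scaled reads + 1), knockout minus control, given with their SE. The share called was 88.7%, against 63.0% of all tested genes, where 34.4% were higher and 28.6% lower. On recovered reads of 5 libraries edgeR called 22 members higher and 22 lower, and DESeq2 21 and 19, against 58.0% and 53.1% of all tested genes called in either direction. Changes of at least 2-fold were found in 15 members (5 higher, 10 lower), or 28.3% of those tested, against 7.08% of all tested genes (1.63% higher, 5.46% lower). At 1.5-fold or more the members called were 23, or 43.4%, against a background of 16.7%. In 46 members, or 86.8%, the knockout and control libraries did not overlap, against 67.1% of all tested genes. The median log2 change was 0.07 over the members and 0.025 over all tested genes, and the median size of the change was 0.52 and 0.25. Sema5a, Epha5 and Ephb3 passed the filter through the control libraries alone, and Sema3a, Sema6c, Efna1 and Ntn4 with fewer than 3 knockout libraries at 10, so their loss is partly built into the counts. Among the 19 members with a mean of at least 1000 scaled reads in either group all 19 were called and 5 changed at least 2-fold, against 76.3% and 1.90% of all such genes.

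**Figure D1:**
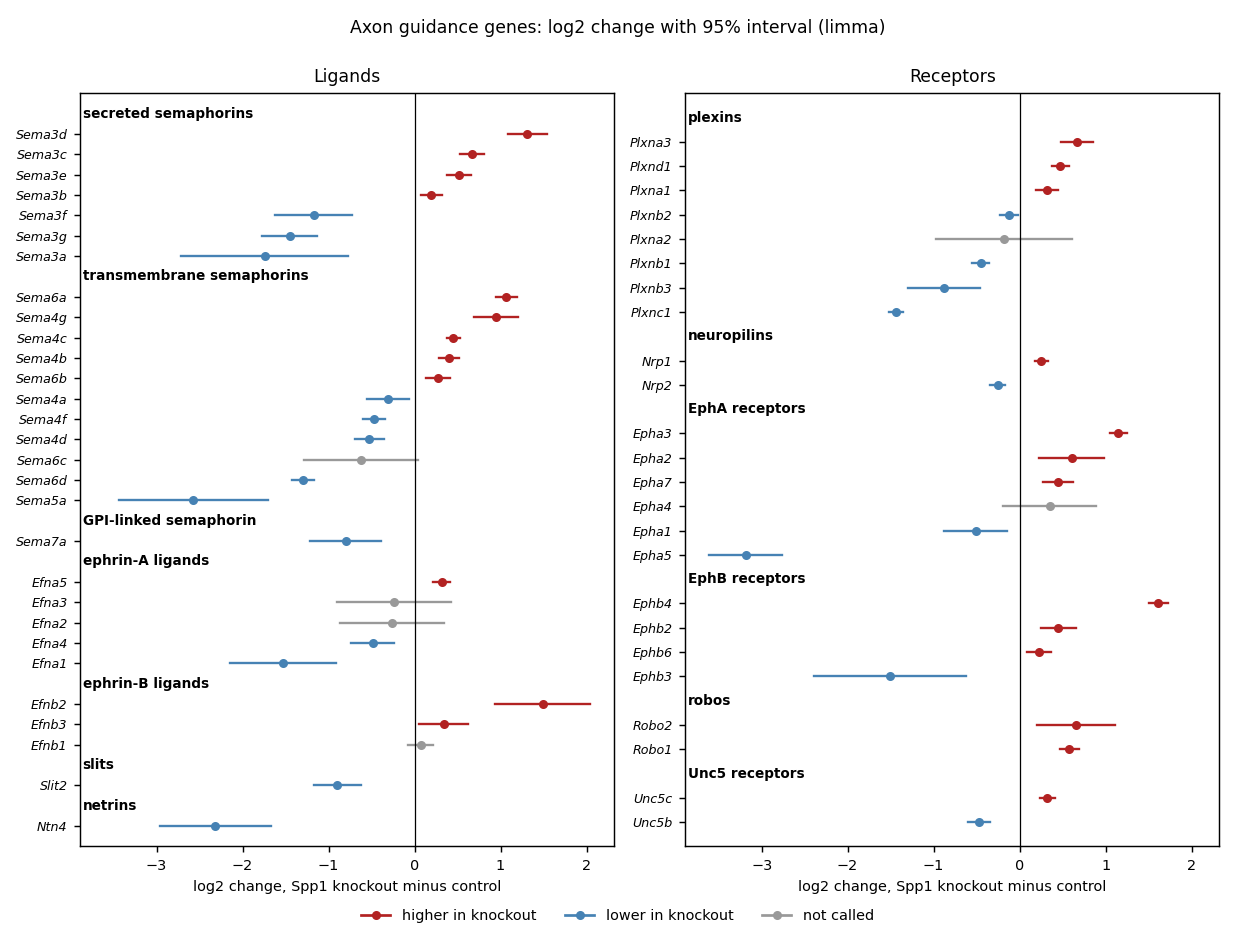
Log2 change of the 53 tested members, Spp1 knockout minus control, with its 95% interval from limma, for ligands (left) and receptors (right) by role. Red members were higher in knockout, blue members lower and grey members not called, and changes run from -3.19 for Epha5 to 1.61 for Ephb4.

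Members that rose at least 2-fold were mostly well read, and members that fell as far were mostly read at lower levels. Of the 5 that rose 4 reached a mean of 100 scaled reads in knockout, and of the 10 that fell 3 reached it in control. This split was not made for all tested genes. Among the low falls, Sema5a, Epha5 and Ephb3 passed the filter through the control libraries alone. Sema3a, Efna1 and Ntn4 passed with fewer than 3 knockout libraries at 10. The contrast in level is therefore partly built into the filter. The high-level exceptions among those that fell were Plxnc1 and Sema6d.

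**Figure D2:**
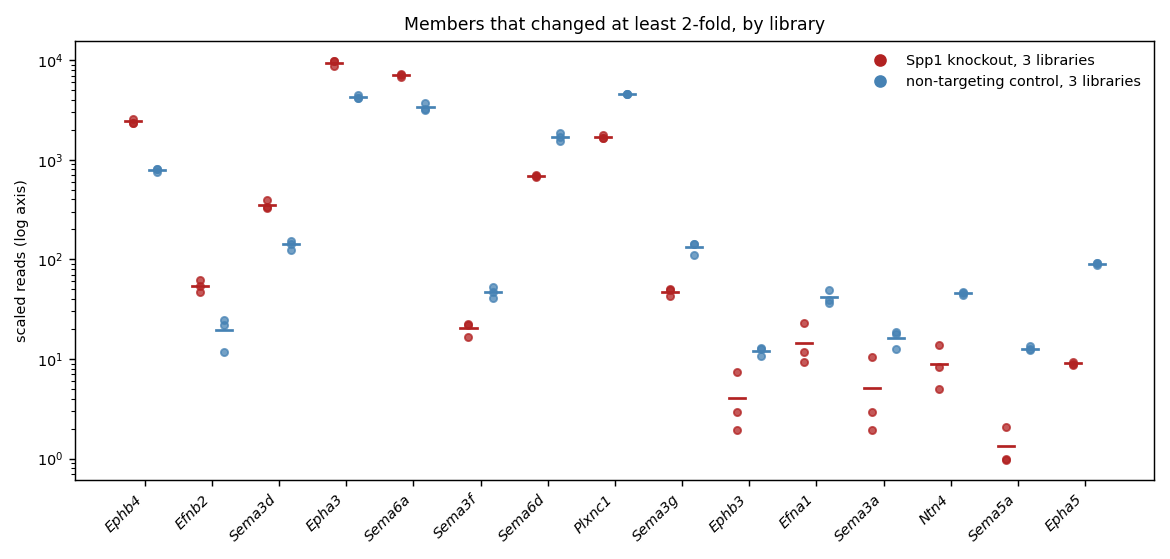
Scaled reads (log axis) of the 15 members that changed at least 2-fold, in order of their log2 change, with 1 point per library and a bar at the mean of each group. Knockout libraries (red, left of each pair) lie wholly above the control libraries (blue, right) for the first 5 genes and wholly below them for the other 10.

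Secreted class 3 semaphorins divided by gene. All 7 were tested, 4 rose and 3 fell, and the knockout libraries did not overlap the control libraries in any of them. This count and those of the families below stand against 63.0% of all tested genes called and 67.1% without overlap. Sema3d, a cue for neural crest and endothelial cells, had 332, 331 and 392 scaled reads in the knockout libraries, against 125, 144 and 154 in the control libraries (log2 change 1.31 ± 0.11, limma adjusted p = 3.64e-08). The knockout mean was 2.49 times the control mean. Sema3c, which guides cardiac neural crest, and Sema3e, a direct ligand of plexin D1, rose by less, to 685 ± 19.2 in knockout, against 431 ± 22.6 in control for Sema3c (SD, n = 3 each; log2 change 0.67) and to 842 ± 45.7 in knockout, against 588 ± 34.1 in control for Sema3e (log2 change 0.52). These 3 and Sema3a lie on chromosome 5 in separate loci. Sema3b, the most abundant class 3 member per length at 820.3 in knockout and 715 in control scaled reads per kb of exon, rose slightly (log2 change 0.20).

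The members of this class that fell were read at lower levels. Sema3g, best known from endothelium, had 42.9, 50.4 and 48.8 scaled reads in the knockout libraries, against 111, 143 and 142 in the control libraries (log2 change -1.45 ± 0.15, limma adjusted p = 5.78e-07). Sema3f, a repellent that uses neuropilin 2, had 16.7, 21.8 and 22.4 scaled reads in the knockout libraries, against 52.2, 41.1 and 47.2 in the control libraries (log2 change -1.17 ± 0.21). Sema3a, the prototype collapsin that acts through neuropilin 1, had 10.5, 2.97 and 1.95 scaled reads in the knockout libraries, against 12.5, 17.9 and 18.7 in the control libraries (log2 change -1.74 ± 0.45, limma adjusted p = 0.00351). All 3 were lower in every knockout library than in any control library. The call on Sema3a was lost in DESeq2 on 5 libraries (adjusted p = 0.0757).

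Of 11 tested transmembrane semaphorins 5 rose, 5 fell and 1 did not pass. Sema6a (chromosome 18, 47235598 to 47368870, minus strand), a ligand of class A plexins, had 7317, 7106 and 6778 scaled reads in the knockout libraries, against 3225, 3176 and 3742 in the control libraries (log2 change 1.07 ± 0.06, limma adjusted p = 6.91e-09). Sema6d, a ligand of plexin A1, went the other way with 704, 686 and 669.5 scaled reads in the knockout libraries, against 1551, 1681 and 1850.3 in the control libraries (log2 change -1.30 ± 0.06, limma adjusted p = 1.11e-10). The groups did not overlap for either gene. Sema4c, a ligand of plexin B2, was the most abundant semaphorin per length at 2231 in knockout and 1633 in control scaled reads per kb, and rose to 10248 ± 483 in knockout, against 7499 ± 92.3 in control scaled reads (SD, n = 3 each; log2 change 0.45).

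Sema4g rose to 252 ± 29.4 in knockout, against 130.3 ± 16.3 in control scaled reads (log2 change 0.95 ± 0.12). Sema4b and Sema6b rose by 0.40 and 0.28 on the log2 scale. Sema4d, the ligand of plexin B1, fell to 492 ± 57.9 in knockout, against 705 ± 18.6 in control (log2 change -0.53), and Sema4f and Sema4a fell with log2 changes of -0.47 and -0.31. Sema5a, which carries thrombospondin repeats, was close to the floor, with 2, 1 and 1 reads in the knockout libraries against 12, 15 and 15 in the control libraries (log2 change -2.58 ± 0.41). Sema6c had 15.7, 9.89 and 9.76 scaled reads in the knockout libraries, against 13.6, 16.99 and 26.04 in the control libraries, and its groups overlapped (log2 change -0.62, 95% interval -1.28 to 0.045). The GPI-anchored Sema7a, a ligand of plexin C1 and of integrins, fell to 43.7 ± 10.3 in knockout, against 76.4 ± 13.2 in control (log2 change -0.80 ± 0.19).

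Summed per kb of exon, the 20 listed semaphorins stood at 5189 ± 244 in knockout and 4049.7 ± 92.1 in control scaled reads per kb (SD, n = 3 each), without overlap between the groups. Sema4c made up 43.01% ± 0.696 in knockout and 40.3% ± 0.676 in control of this sum. The share of Sema6a was 15.5% ± 0.426 in knockout and 9.504% ± 0.717 in control, and the share of Sema6d was 1.25% ± 0.0433 in knockout and 3.96% ± 0.326 in control. Exon lengths are the union over annotated transcripts, so genes with long or rarely used exons are understated in sums per kb.

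Plexins had the highest summed level per length of the families. Summed per kb of exon they stood at 21229 ± 1349 in knockout and 18274 ± 953 in control scaled reads per kb, and the groups did not overlap, though knockout 3 (19675) came close to control 3 (19335). Of 8 tested, 3 rose, 4 fell and 1 did not pass. Plxnd1, the receptor of Sema3e best known from vessels, rose to 62616 ± 3561 in knockout, against 45113 ± 2454 in control scaled reads (SD, n = 3 each; log2 change 0.47 ± 0.05, limma adjusted p = 1.03e-06). Plxna1, a partner of neuropilins, rose to 68046 ± 4842 in knockout, against 54499 ± 3488 in control (log2 change 0.32 ± 0.06). Plxna3 was far lower per length, at 39.8 in knockout and 25.1 in control scaled reads per kb, and rose with a log2 change of 0.66.

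Plxnc1, the receptor of Sema7a, was the plexin that changed most (chromosome 10, 94790866 to 94944835, minus strand; its promoter stretch is printed above). It had 1663, 1764 and 1639.7 scaled reads in the knockout libraries, against 4615, 4545 and 4543 in the control libraries (log2 change -1.44 ± 0.04, limma adjusted p = 3.81e-13). The knockout mean was 0.37 times the control mean, and the groups did not overlap. Plxnb1, the receptor of Sema4d, fell to 5709.8 ± 373 in knockout, against 7808 ± 282 in control (log2 change -0.45), and Plxnb3 had 37.7, 41.5 and 40.99 scaled reads in the knockout libraries, against 102, 61.7 and 65.1 in the control libraries (log2 change -0.88 ± 0.20). Plxnb2, abundant in these cells, fell by a small amount to 33132 ± 2269 in knockout, against 36102 ± 1742 in control (log2 change -0.13 ± 0.05), a call lost in 6 of 17 alternative settings and at -0.067 without knockout 3. Plxna2 was near the floor and overlapped between groups (log2 change -0.19, 95% interval -0.98 to 0.61).

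The make-up of the plexin sum differed between the groups. Plxnd1 held 40.4% ± 0.389 in knockout and 33.8% ± 0.453 in control and Plxna1 held 35.4% ± 0.4 in knockout and 32.9% ± 0.594 in control. Plxnb2 held 20.2% ± 0.119 in knockout and 25.6% ± 0.107 in control, and Plxnc1 held 0.955% ± 0.049 in knockout and 2.999% ± 0.162 in control. None of these shares overlapped between the groups. A share can fall because others rise, and the levels above say which did.

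**Figure D3:**
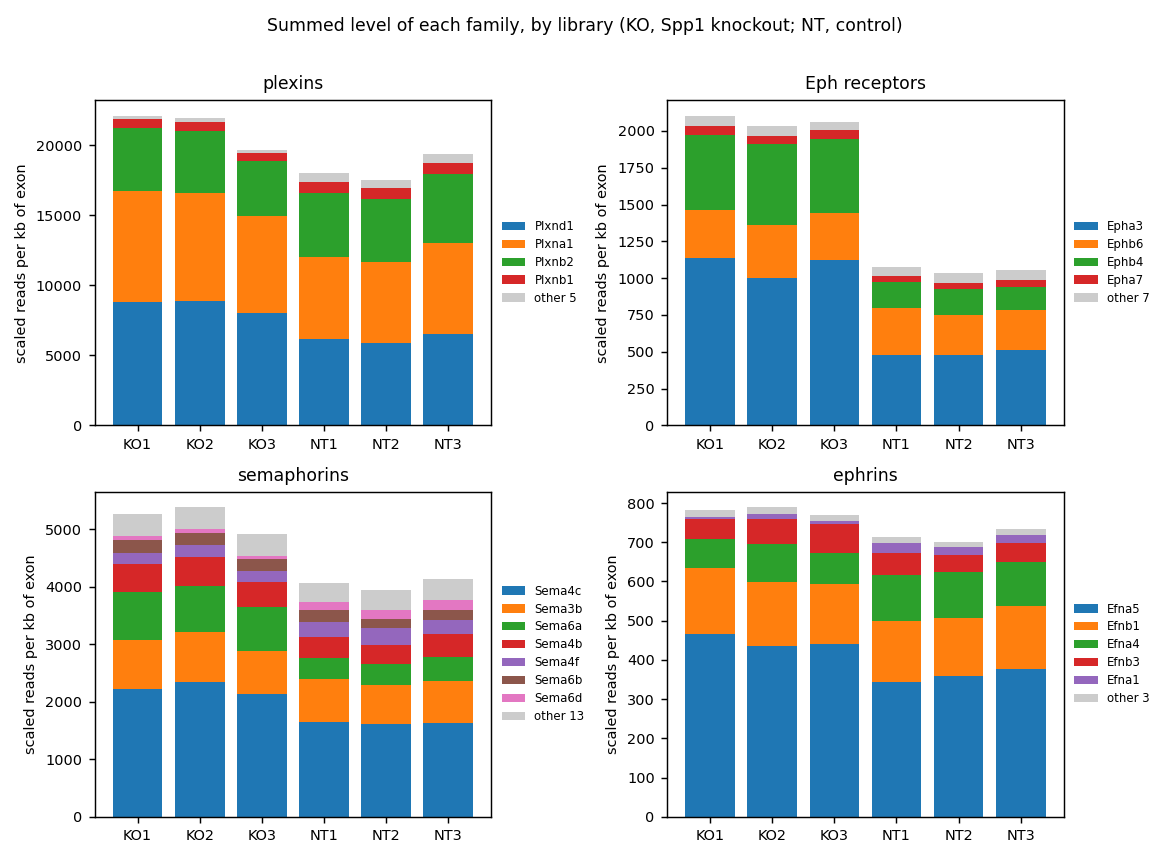
Summed level of plexins, Eph receptors, semaphorins and ephrins in scaled reads per kb of exon, stacked by member, in the 3 knockout (KO) and 3 control (NT) libraries. The Eph receptor bars reach 2034 to 2103 in knockout and 1038 to 1075 in control, with Epha3 and Ephb4 the parts that grew most.

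The neuropilins parted in direction. Nrp1, a co-receptor for class 3 semaphorins and VEGF, had 5071, 4875 and 4752 scaled reads in the knockout libraries, against 4056, 4101 and 4198 in the control libraries (log2 change 0.25 ± 0.04). Nrp2, its relative with a preference for Sema3f, had 34214, 33976 and 31754 scaled reads in the knockout libraries, against 38056, 38841 and 42611 in the control libraries (log2 change -0.26 ± 0.04). Neither gene overlapped between the groups. Nrp2 stayed the main neuropilin, at 84.9% ± 0.282 in knockout and 88.9% ± 0.422 in control of the sum per kb.

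Eph receptors were the family whose summed level differed most among the receptor families, at 2065 ± 34.8 in knockout and 1056 ± 18.7 in control scaled reads per kb (SD, n = 3 each), a ratio of 1.96. Of 10 tested Eph receptors 6 rose, 3 fell and 1 did not pass. Ephb4 (chromosome 5, 137350109 to 137378669, plus strand), the receptor of ephrin-B2 in the parting of arteries and veins, had 2364, 2574 and 2335 scaled reads in the knockout libraries, against 811, 814 and 753 in the control libraries (log2 change 1.61 ± 0.05, limma adjusted p = 2.35e-12). The knockout mean was 3.06 times the control mean, the largest rise among the tested members on the log2 scale. Epha3 (chromosome 16, 63543534 to 63864175, minus strand), a receptor of ephrin-A5, had 9865, 8693 and 9771 scaled reads in the knockout libraries, against 4169, 4139 and 4457 in the control libraries (log2 change 1.15 ± 0.05, limma adjusted p = 1.13e-10). These were the most and, after Ephb6 in control, the next most abundant Eph receptors per length: Epha3 stood at 1086 in knockout and 489.5 in control, Ephb4 at 522 in knockout and 171 in control and Ephb6 at 335 in knockout and 286 in control scaled reads per kb.

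Other Eph receptors moved by less or at low levels. Ephb2 and Epha7 rose to 335 ± 41.2 in knockout, against 244 ± 8.61 in control and to 563 ± 65.4 in knockout, against 412 ± 17.2 in control scaled reads, with log2 changes of 0.45 and 0.44. Epha2, a receptor studied in melanoma invasion, was low and rose to 51.5 ± 0.777 in knockout, against 33.6 ± 3.89 in control (log2 change 0.61 ± 0.18), a call lost in DESeq2 (adjusted p = 0.137). Ephb6, which lacks an active kinase, rose slightly (log2 change 0.23), a call lost in edgeR and DESeq2 on 5 libraries (adjusted p = 0.104 and 0.111).

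Epha5 had the lowest log2 change of the tested members, and it passed the filter through the control libraries alone. Epha5 (chromosome 5, 84054761 to 84417382, minus strand), a receptor of ephrin-A5 in axon mapping, had 9.41, 8.903 and 8.78 scaled reads in the knockout libraries, against 88.8, 91.2 and 91.1 in the control libraries (log2 change -3.19 ± 0.20, limma adjusted p = 1.96e-09). It had 9 reads in each knockout library, against 85, 102 and 112 reads in the control libraries. Ephb3 was near the floor with 7.32, 2.97 and 1.95 scaled reads in the knockout libraries, against 12.5, 10.7 and 13.02 in the control libraries (log2 change -1.50 ± 0.42), and DESeq2 did not call it (adjusted p = 0.125). Epha1 fell to 82.96 ± 21.4 in knockout, against 116 ± 6.595 in control (log2 change -0.51 ± 0.17, and -0.28 without knockout 3, where it was not called). Epha4 overlapped between the groups (log2 change 0.35, 95% interval -0.19 to 0.89).

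The summed level of the ephrins differed less, at 781 ± 10.7 in knockout and 716 ± 15.8 in control scaled reads per kb. Of 8 tested ephrins 3 rose, 2 fell and 3 did not pass. Efnb2, ephrin-B2, had 61.7, 53.4 and 46.8 scaled reads in the knockout libraries, against 21.9, 11.6 and 24.4 in the control libraries (log2 change 1.49 ± 0.26, limma adjusted p = 1.15e-04). Efna5, ephrin-A5, was the most abundant ephrin per length, at 448 in knockout and 360.01 in control scaled reads per kb, and rose with a log2 change of 0.31 ± 0.05. Efna1, ephrin-A1, had 9.41, 22.8 and 11.7 scaled reads in the knockout libraries, against 49.1, 36.7 and 39.1 in the control libraries (log2 change -1.53 ± 0.29, limma adjusted p = 2.70e-04). Every knockout library was below every control library for Efna1, and above it for Efnb2 and Efna5.

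Efna4 fell to 133 ± 19.8 in knockout, against 185 ± 2.68 in control scaled reads (log2 change -0.49 ± 0.12). Efnb3 rose by 0.34 on the log2 scale, but its groups overlapped and its call was lost in 10 of 17 alternative settings, with 0.21 without knockout 3. Efnb1 stood at 558 ± 24.6 in knockout, against 532 ± 21.1 in control, with a 95% interval of the log2 change of -0.071 to 0.21. Efna2 and Efna3, both near 10 scaled reads, did not pass, with intervals of -0.86 to 0.35 and -0.90 to 0.42. Efna1, Efna3 and Efna4 lie close together on chromosome 3, between 89271733 and 89338028 on the minus strand.

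Among tested Slit and Robo genes Slit2 fell and Robo1 and Robo2 rose, while Slit1, Robo3 and Robo4 were below the filter. Slit2, the tested Slit ligand, had 281, 279 and 201 scaled reads in the knockout libraries, against 444, 436 and 531 in the control libraries (log2 change -0.90 ± 0.13, limma adjusted p = 3.80e-05). Robo1, its receptor, had 5809, 5699 and 5321 scaled reads in the knockout libraries, against 3592, 3603 and 4093 in the control libraries (log2 change 0.58 ± 0.05, limma adjusted p = 2.79e-07). Neither gene overlapped between the groups. Robo2 rose to 59.7 ± 16.8 in knockout, against 36.5 ± 2.96 in control (log2 change 0.66 ± 0.21), a call lost in 4 of 16 alternative settings, knockout 2 being close to the controls. Robo1 made up 98.6% ± 0.257 in knockout and 97.7% ± 0.179 in control of the Robo sum per kb.

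Netrin genes were low and Unc5 receptors clearly read. Ntn4, a netrin of basement membranes that binds laminin, had 8.37, 4.95 and 13.7 scaled reads in the knockout libraries, against 43.9, 47.4 and 45.6 in the control libraries (log2 change -2.32 ± 0.30, limma adjusted p = 6.53e-06). Unc5c, a netrin receptor linked to repulsion and apoptosis, rose to 16776 ± 302 in knockout, against 13428 ± 813 in control scaled reads (SD, n = 3 each; log2 change 0.32 ± 0.04). Unc5b fell to 601 ± 31.01 in knockout, against 834 ± 2.81 in control (log2 change -0.47 ± 0.06). Unc5b lies on chromosome 10 and its direction turned once the neighbouring genes were taken into account, as given below.

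The 7 members below the filter were Sema5b, Plxna4, Epha10, Slit1, Robo3, Robo4 and Ntn1, at 0.976 to 32.4 scaled reads in knockout and 1.79 to 12.5 in control. With no filter on low values 3 of them were lower in knockout in limma. Ntn1, netrin 1, had 2, 1 and 2 reads in knockout, against 12, 10 and 10 in control (log2 change -2.03, adjusted p = 1.81e-04). Robo4, an endothelial Robo, had 2, 4 and 2 reads in knockout, against 11, 12 and 12 in control (log2 change -1.71), and Epha10 had a log2 change of -1.18. Plxna4 had 31 reads in knockout 1 but 12 and 8 in the other knockout libraries, against 6, 9 and 8 in control.

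Ligands and their textbook receptors were set side by side, in 15 pairs chosen with the values known. In 14 pairs both partners were tested and called, and in the other, Ntn1 with Unc5b, the ligand was below the filter. Both partners rose in 3 pairs, Efnb2 with Ephb4, Efna5 with Epha3 and Sema3e with Plxnd1. Both fell in 5 pairs, Sema7a with Plxnc1, Sema4d with Plxnb1, Sema5a with Plxnb3, and Sema3f and Sema3g with Nrp2. The ligand fell and the receptor rose in 4 pairs, Slit2 with Robo1, Sema6d with Plxna1, Efna1 with Epha2 and Sema3a with Nrp1. The ligand rose and the receptor fell in 2 pairs, Sema3c with Nrp2 and Sema4c with Plxnb2. Several pairs share a receptor, so the pairs are not independent. Other textbook pairs were not included: Efna5 also binds Epha5, and there the ligand rose (0.31) and the receptor fell (-3.19). The counts therefore describe the chosen pairs only. The calls on Plxnb2 and Sema7a were lost net of the neighbouring genes, as given below, and those on Epha2 and Sema3a in DESeq2. Sema3a and Efna1 passed the filter with fewer than 3 knockout libraries at 10, so their falls are partly built into the counts. Sema5a passed the filter through the control libraries alone, so its low level in knockout is no evidence of a shared direction with Plxnb3. Epha5 also passed through the control libraries alone, so its fall beside Efna5 is partly built into the counts.

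**Figure D4:**
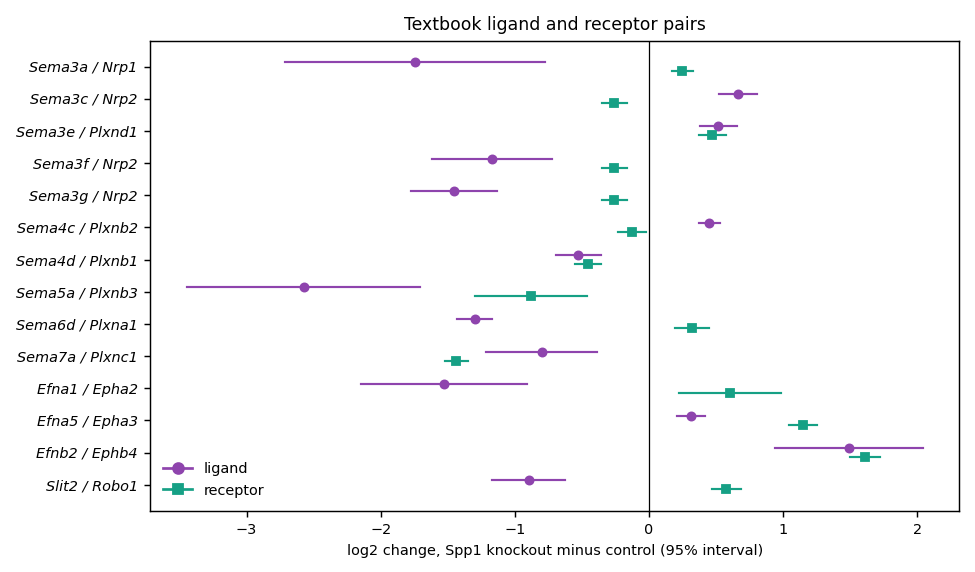
Log2 change, Spp1 knockout minus control, with 95% intervals, of the ligand (purple circle) and the receptor (green square) in the 14 pairs whose partners were both tested. Efnb2 and Ephb4 both lie to the right of 0 at 1.49 and 1.61, and Sema7a and Plxnc1 both lie to the left at -0.80 and -1.44. The call on Sema7a was lost net of its neighbouring genes.

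Some members lie on chromosomes whose genes were lower or higher as a whole. The median log2 change of tested genes was -0.58 on chromosome 10 (690 genes), -0.24 on chromosome 3 (841 genes), -0.19 on chromosome 15 (541 genes) and -0.16 on chromosome 9 (828 genes), against 0.025 over all tested genes. On chromosome 17, which holds Efna5 and Sema6b, it was 0.19 (698 genes). For each library the running median of the 25 tested genes on either side was subtracted, and the test repeated. Of the 47 members called, 39 kept their call and direction.

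Plxnc1 stayed lower net of its neighbours, at -0.83 where its neighbours' median was -0.60, and Ntn4 stood at -1.71 with a neighbours' median of -0.61. Unc5b on the same chromosome fell less than its neighbours (-0.65) and stood at 0.18 net of them (limma adjusted p = 0.0192). Plxnb2 on chromosome 15 turned to 0.052 and was no longer called. Sema4a and Efna4 on chromosome 3 and Sema7a on chromosome 9 stood at -0.033, -0.22 and -0.40 and were no longer called (adjusted p = 0.832, 0.106 and 0.0835). Efna1, close to Efna4, stayed lower at -1.29. Sema3b on chromosome 9 rose against lower neighbours (-0.34) and stood at 0.54. Several calls held at a smaller size: Plxnb1 stood at -0.23 and its ligand Sema4d at -0.26, against -0.45 and -0.53 before subtraction, and Unc5c stood at 0.21 against 0.32. Efna5 on chromosome 17 stood at 0.21 against 0.31. Sema6b, Efnb3 and Robo2 stood at 0.14, 0.22 and 0.48 and were no longer called (adjusted p = 0.0589, 0.160 and 0.0623). The large rises changed little, with Ephb4 at 1.49, Epha3 at 1.01 and Sema6a at 0.92.

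**Figure D5:**
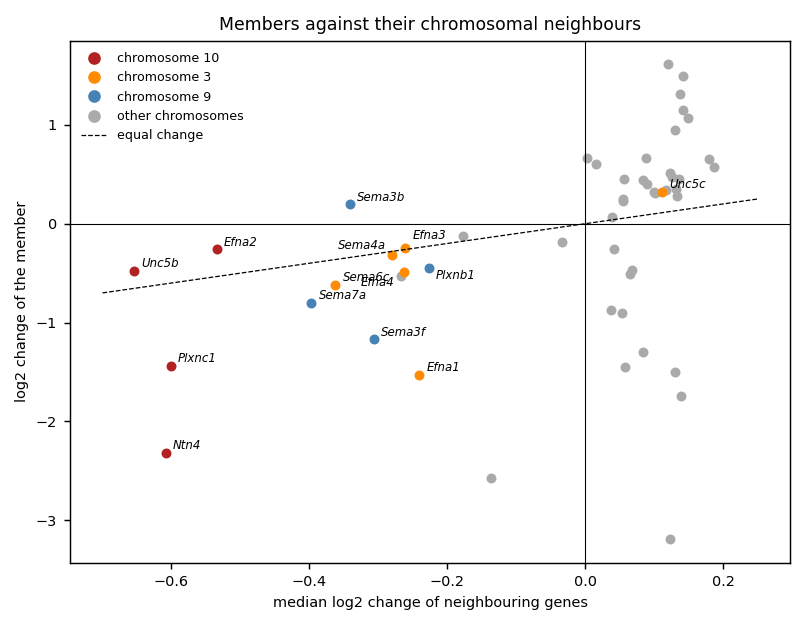
Log2 change of each tested member (vertical) against the median log2 change of the 25 tested genes on either side of it (horizontal), knockout minus control, with chromosomes 10, 3 and 9 coloured and a dashed line of equal change. Plxnc1 and Ntn4 lie below the line and Unc5b and Efna2 above it, although all 4 have neighbours at -0.53 to -0.65.

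Genes that act beside or below these receptors were followed in 6 lists. Of 113 genes 89 were tested, 47 rose, 23 fell and 19 did not pass, 78.7% called against 63.0% of all tested genes. Most of these genes were highly read, and of all genes with a mean of at least 1000 scaled reads in either group 76.3% were called. Changes of at least 2-fold were found in 7 of the 89, a share near the 7.08% of all tested genes. The median log2 change was 0.12, against 0.025 over all tested genes. Among co-receptors and further cues 3 of 10 rose and 4 fell. Dcc, the attractive netrin receptor, had 54.4, 60.3 and 35.1 scaled reads in the knockout libraries, against 6.27, 5.36 and 8.14 in the control libraries (log2 change 2.73 ± 0.28, limma adjusted p = 4.56e-07). Dcc passed the filter through the knockout libraries alone, so its rise is partly built into the counts. The repulsive guidance molecule gene Rgmb and the Robo1 partner Flrt3 rose by 0.75 and 0.67 on the log2 scale. The adhesion molecule gene L1cam, the netrin receptor Neo1 and the Wnt receptor Ryk fell, with log2 changes of -0.35, -0.32 and -0.19. The neighbours' medians were -0.40 for Neo1 and -0.22 for Ryk, each lower than the gene's own change, and 0.012 for L1cam. For the genes that rose they were 0.49 for Rgmb, 0.14 for Dcc and 0.073 for Flrt3.

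In the semaphorin and plexin signalling list 9 of 19 tested genes rose and 7 fell (median log2 change 0.053). The collapsin response mediator gene Crmp1 and the plexin-binding exchange factor genes Farp2 and Farp1 rose by 0.82, 0.68 and 0.56. Rras and Rap1b, small GTPases acted on by plexins, and Mical2, a monooxygenase of actin, had log2 changes of -1.20, -0.57 and -1.06. In the Eph and ephrin list 10 of 15 rose and 3 fell (median 0.27), with the scaffold Itsn1, the ubiquitin ligase Cbl and the kinase Abl2 at 0.57, 0.56 and 0.41. Chn2, a Rac-specific GTPase activator of the chimaerin family, fell to 277 ± 4.404 in knockout, against 2066 ± 163 in control scaled reads (SD, n = 3 each; log2 change -2.89 ± 0.06, limma adjusted p = 4.64e-14), and Fyn and Nck1 had log2 changes of -0.62 and -0.18. The neighbours' medians were -0.62 for Fyn and -0.26 for Nck1, close to Fyn's own change and lower than that of Nck1. Rap1b had a neighbours' median of -0.48. For the named genes that rose the neighbours' medians were 0.096 for Crmp1, 0.061 for Farp2 and 0.19 for Farp1. They were 0.25 for Itsn1, 0.089 for Cbl and 0.010 for Abl2.

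In the Slit and Robo list 9 of 16 rose and 2 fell (median 0.13). Enah, an actin elongation factor bound by Robo, rose to 6763 ± 148 in knockout, against 3545 ± 184 in control scaled reads (log2 change 0.93), with Sos1 at 0.74 and Sdc1 at 0.46. The heparan sulphate proteoglycan gene Sdc3 and the Slit-Robo GTPase activator gene Srgap3 fell to 501 ± 5.73 in knockout, against 2097 ± 87.5 in control and to 42.2 ± 5.72 in knockout, against 128 ± 16.2 in control (log2 change -2.06 and -1.58). In the netrin list 7 of 12 rose and 4 fell (median 0.11), with the exchange factor Trio at 0.73, Bcar1 at 0.51, Nfatc2 at 0.50, Ablim1 at -0.42, the focal adhesion kinase gene Ptk2 at -0.33 and Siah2 at -0.28. The neighbours' medians were -0.31 for Siah2 and -0.18 for Ptk2. For the named genes that rose in these 2 lists they were 0.057 for Enah, 0.14 for Sos1 and 0.11 for Sdc1. They were -0.091 for Trio, 0.16 for Bcar1 and 0.15 for Nfatc2. Among growth cone cytoskeleton effectors 9 of 17 rose and 3 fell (median 0.16). The cofilin phosphatase genes Ssh3 and Ssh1 rose by 2.48 and 0.63 and Rhob by 0.75, and Tubb3, Marcks and Rhoa had log2 changes of -0.50, -0.46 and -0.30. The neighbours' medians were -0.60 for Marcks and -0.35 for Rhoa, each lower than the gene's own change, and 0.11 for Tubb3. They were 0.079 for Ssh3, 0.18 for Ssh1 and 0.10 for Rhob.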

How the data were processed

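The authors deposited signal values, in which each library's gene reads are scaled by a single DESeq size factor, as the table's name and the series' design text give it. The submitters' processing notes list the tools STAR 2.5.0a, cutadapt 1.6 and HTSeq 0.5.3 beside DESeq, and mm10 as the build. The sources used here do not give the annotation release, strand setting or gene filter, and without strand overlapping genes cannot be told apart. Members shared at most 14.1% of their exon length with another gene and at most 2.60% of their 50-base words. Every value was a whole multiple of the smallest in its column (100% within 0.001), taken as 1 read. No listed gene had under 1 read in any library. A unit check did not accept this recovery for knockout 2, where 1 read is worth 0.989, so edgeR 4.0.16 and DESeq2 1.42.0 were run on 5 libraries, and reads given for knockout 2 rest on that value. These reads gave 8879 calls in edgeR and 8123 in DESeq2.

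Values were set to log2(value + 1), and genes with at least 10 in at least 3 of 6 libraries were tested for knockout against control in limma 3.58.1 (R 4.3.3, trended and robust, two-sided, Benjamini-Hochberg, threshold 0.05). Log2 changes understate those of low genes. With 3 against 3 libraries an exact permutation test cannot go below 0.1, so none is given. The test was checked on simulated data with 200 changed genes and the same dispersion for every gene. In these data 9640 of the 15307 tested genes were called, so that check does not measure the error rate here. Replicates of a group correlated at r = 0.996 to 0.997 and differed by more than counting error (chi-square over its degrees of freedom, 5.89 to 16.8). Positions and exon lengths came from GENCODE M21 on GRCm38 (19121 of 19213 IDs matched without version). Members and lists were chosen with earlier results of these data known. Spp1, every member at or past 2-fold, the most abundant of each role, and up to 3 higher and 3 lower genes of each signalling list were named.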

Additional observations from a re-analysis of the deposited data

How the results depend on the processing

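The counts of members higher and lower in knockout, 25 and 22, stayed within 1.5 times under all 17 alternative settings (21 to 25 higher and 16 to 25 lower), as did those of all tested genes and of the signalling lists. Of the 47 calls on members 33 held under every setting that could be run. Net of the neighbours' median Unc5b turned to 0.18 and Plxnb2 to 0.052. With equal totals 4476 of all tested genes were higher and 5030 lower in knockout, against 5266 and 4374 as scaled by the authors, while the members stood at 24 and 22. Equal totals moved the median log2 change of all tested genes by -0.049.

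Leaving out 1 library at a time gave 23 to 25 members higher and 20 to 22 lower in knockout. Calls were then lost for Sema4a without knockout 1 or 2 or control 2 or 3 (limma adjusted p = 0.111, 0.0610, 0.0535 and 0.107), for Plxnb2 without knockout 3 or control 1 or 3 (0.169, 0.0690 and 0.165), for Efnb3 without knockout 2 or 3 or control 2 or 3 (0.102, 0.195, 0.125 and 0.103), for Epha1 without knockout 3 or control 2 (0.0944 and 0.0550) and for Robo2 without knockout 1 or 3 (0.0849 and 0.0568). Sema6c passed without knockout 1 or control 1 (0.0485 and 0.0480). The log2 change of Plxnb2 was -0.067 without knockout 3, and that of Epha1 was -0.28. Sema3b lost its call in edgeR, in DESeq2 and without trend and robust estimation (adjusted p = 0.0847, 0.0752 and 0.0660).

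Same-numbered knockout and control libraries did not deviate together (r = -0.107, -0.244 and -0.038). No pairing by number was seen in the values, but this check cannot tell if samples were handled in pairs. With the replicate number as a block 24 members were higher and 21 lower in knockout, and the calls on Plxnb2 and Efnb3 were lost. Depth limits the members near 10 scaled reads, where a few reads set the change.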
